A study of Mus musculus with 18 samples.

Results

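Plasma serpins were followed at the RNA level in mouse hepatocytes in primary culture, given interleukin 6 (IL-6) and then hepatocyte growth factor (HGF). Serpins are a family of structurally related proteins, most of which inhibit serine proteases. The group was chosen by name and holds 9 genes: Serpina3n, Serpina3m, Serpina3g, Serpina6, Serpina10, Serpinc1, Serpind1, Serpinf2 and Serping1. Of these, 7 were measured, each by 1 probe set, among 18193 genes with a named probe set. Serpina3m and Serpina3g had no probe set under their names in the annotation used and were not analysed here. Serpina3n belongs to a cluster of near-identical paralogs on chromosome 12, and whether its probe set also reads other paralogs was not tested. The probe set of Serpina10 carries the suffix that Affymetrix gives to sets shared by several transcripts.

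The cells came from male C57BL/6N mice of 8 to 12 weeks, from 1 animal or a pool of up to 3 for each experiment, and were plated below confluence on collagen I. All groups had been kept in serum-free medium with dexamethasone, a synthetic glucocorticoid, and were then moved to medium without it for 4 h before stimulation; the control at -5 h, by its hour, precedes that change. The 18 arrays were 5 unstimulated controls (0, 4, 8, 12 and 24 h), 1 control at -5 h, 4 arrays with 40 ng/ml IL-6 (1, 2, 3 and 4 h), and 8 with IL-6 followed by 40 ng/ml HGF from 4 h (5, 6, 7, 8, 9, 10, 12 and 24 h). Each condition and hour had 1 array. Hours of a condition therefore stood in for replicates, and as no source says that the dishes came from separate animals, the p-values cover no more than the variation among these cultures over time, which may be technical. The design holds no IL-6 alone after 4 h, so the effect of HGF and of longer IL-6 exposure cannot be told apart.

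Inhibitory serpins act as suicide substrates: the protease cuts an exposed loop of the inhibitor and stays covalently trapped while the serpin changes shape. The liver makes most of the serpins of blood plasma, which restrain coagulation, fibrinolysis, complement and leukocyte proteases, and a few members have lost inhibition and carry hormones instead. In the liver, IL-6 acts through the receptor subunit gp130 and the transcription factor STAT3 to raise acute-phase proteins, and the Serpina3 genes are among the classical acute-phase genes of rodents. HGF signals through the receptor Met and is a growth factor for hepatocytes.

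Values are deposited log2 expression signals, so a difference of 1 is a doubling or halving. Array medians lay between 5.47 and 5.57. Of 8 hepatocyte markers 7 were measured, and Alb, the albumin gene, lay between 14.67 and 14.89 on all arrays; Serpina1c, itself a serpin, is on that list. The 24 h arrays stood somewhat apart: their mean correlation with the other arrays was 0.983 in control and 0.981 with IL-6 plus HGF, against 0.989 to 0.9941 for the rest. The mean of the 7 hepatocyte markers, relative to the control at 0 h, was -0.74 in control at 24 h and -1.24 with IL-6 plus HGF at 24 h, and lay between -0.17 and -0.01 with IL-6 alone. The mean of 10 Kupffer cell markers lay between -0.64 and -0.46 with IL-6, between -0.72 and -0.41 with IL-6 plus HGF and between -0.56 and 0 in the 5 controls. Of 7 measured lymphocyte markers, the mean moved between -0.13 and 0.19 over these 17 arrays. The mean of 9 endothelial markers was -0.17 in control and -0.68 with IL-6 plus HGF at 24 h. At the matched hours 2 of 9 were lower, where 6.46% of all genes were lower. Along the course of IL-6 plus HGF 2 of 9 fell, where 4.84% of all genes fell. The part of these markers in the serpin values was not tested. In RNA of a whole dish, fewer cells of a type and less RNA per cell cannot be told apart.

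IL-6 alone was first set against the controls at 0 and 4 h, which asks whether the cytokine moves serpin RNA within its first 4 hours. None of the 7 genes passed, while a few other genes of the same cells did. Socs3, a feedback inhibitor of IL-6 signalling, was higher by 3.51 ± 0.32 (log2, SE, adjusted p = 2.44e-05 in limma). Cebpd, a C/EBP family transcription factor, was higher by 2.76 ± 0.21 (adjusted p = 2.009e-06 in limma). Of 30 measured IL-6 response genes only these 2 passed, where 0.022% of all genes were higher. Among the 30, 22 differences were positive and 8 negative, with a median of 0.10. Most of that list thus did not pass either. Serpina3n, an inhibitor of leukocyte proteases and an acute-phase gene in mice, read 12.88, 12.87, 12.81 and 12.74 at 1, 2, 3 and 4 h of IL-6, and 12.98 and 12.66 in the controls at 0 and 4 h. The IL-6 arrays thus lay between both controls. The difference was 0.002 ± 0.43 (log2, SE; 95% interval -0.91 to 0.92; adjusted p = 1 in limma). At the one hour measured in both conditions, 4 h, IL-6 minus control was 0.07 for Serpina3n.

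Of the 7 serpins 0 passed the threshold of adjusted p 0.05 in this comparison, and 0 had an unadjusted p under 0.05, where limma called 0.0220% of 18193 genes. Serpina10, the protein Z-dependent protease inhibitor that inactivates factor Xa on membranes, had the largest difference of the 7, at 0.28 ± 0.44 (SE; adjusted p = 1). It read 12.10, 12.18, 12.54 and 12.46 at 1 to 4 h of IL-6 against 11.97 and 12.12 in the controls, so that the ranges overlapped by little. Serpinf2, which encodes the plasmin inhibitor alpha-2-antiplasmin, differed by 0.18 ± 0.29, with 12.32, 12.25, 12.46 and 12.39 against 12.24 and 12.11. All 4 of its IL-6 arrays were above both controls. The other 4 serpins differed by -0.13 to 0.07. Beside these values, 9 of 10 Kupffer cell markers were lower with IL-6, with a median difference of -0.45 and 0 of 10 passing; their part in the serpin values was not tested. The standard errors come from 17 arrays and hold the spread over hours to 24 h. With the hour as a covariate in the 6 arrays at 0 to 4 h, Serpina3n differed by 0.04 ± 0.07 (adjusted p = 0.924). Against all 5 controls, which include the low late ones, it differed by 0.58 ± 0.37 (adjusted p = 0.471). In both fits 0 of 7 passed.

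Over the 24 h of culture the 7 genes had different courses, described here as values and tested further on. Serpina3n read 12.98, 12.66, 12.44, 12.18 and 10.95 in control at 0, 4, 8, 12 and 24 h, each value below the one before. Its 8 values with IL-6 plus HGF had a lowest of 10.69 (24 h), a median of 12.38 and a highest of 12.59 (5 h). Both conditions were lowest at 24 h, and the control at 24 h stood 4.09-fold below that at 0 h.

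Serpinc1, Serpina10 and Serpind1 act on coagulation proteases. Serpinc1 encodes antithrombin, the heparin-activated inhibitor of thrombin and factor Xa, and read 13.42, 13.30, 13.14, 13.02 and 11.99 in control at 0, 4, 8, 12 and 24 h. Under IL-6 plus HGF it ranged from 11.45 at 24 h to 13.16 at 6 h, with a median of 12.95. As for Serpina3n, each control value was below the one before, and the control at 24 h was 2.69-fold below that at 0 h.

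Serpina10 had a different shape, with 11.97, 12.12, 12.06, 12.39 and 11.13 in control, that is, with no lower value than at 0 h before 24 h. The stimulated cells read 11.92 at 5 h, 12.56 at 6 h and 12.55 at 7 h, then 11.75 at 12 h and 10.47 at 24 h (median 12.22). Both conditions were lowest at 24 h.

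Serpind1, which encodes heparin cofactor II, a second plasma inhibitor of thrombin, was the exception among the coagulation inhibitors. In control it read 9.71, 10.03, 9.96, 10.46 and 10.14 at 0, 4, 8, 12 and 24 h. With IL-6 plus HGF it had a lowest of 9.92 at 5 h, a median of 10.28 and a highest of 10.55 at 24 h. It was thus lowest in control at the start and highest in the stimulated cells at the end.

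The inhibitors of fibrinolysis and complement also differed from each other. Serpinf2 read 12.24, 12.11, 12.11, 12.14 and 11.30 in control, level until 12 h and lower at 24 h. In the stimulated cells its lowest was 11.15 at 24 h, its median 12.27 and its highest 12.58 at 6 h. Serping1 encodes C1 inhibitor, which blocks the complement proteases C1r and C1s and also plasma kallikrein.

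Serping1 had the smallest range over all 18 arrays: 12.64, 12.48, 12.48, 12.57 and 12.15 in control and 12.32 to 12.81 with IL-6 plus HGF (median 12.52). Its control at 24 h was 1.41-fold below that at 0 h, while that of Serpind1 was 1.35-fold above. Serpina6 encodes corticosteroid-binding globulin, a non-inhibitory serpin that carries glucocorticoids in blood. Its signal was low, close to the array medians, and read 6.67, 6.02, 5.80, 4.77 and 5.00 in control. With IL-6 plus HGF it had a lowest of 4.44 at 24 h, a median of 5.63 and a highest of 6.26 at 6 h. At 12 h it read 4.77 in control and 5.35 with IL-6 plus HGF, and the control at 12 h differed from that at 0 h by -1.91, against -0.11 for Serpinf2 and 0.42 for Serpina10.

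**Figure D1:**
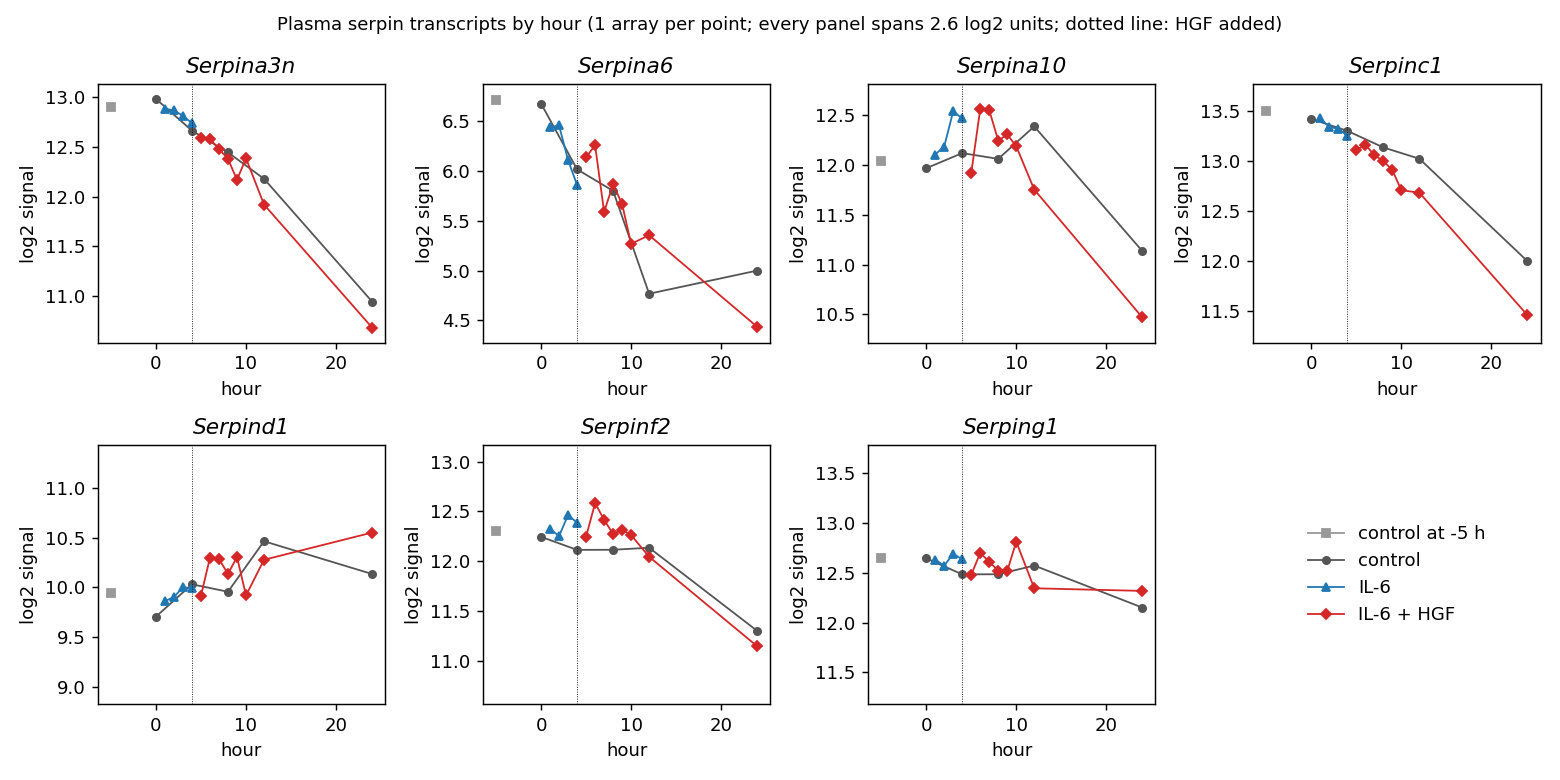
Log2 signal (vertical axis) of the 7 measured serpins against the hour (horizontal axis), 1 array per point, in control (circles), control at -5 h (square), IL-6 (triangles) and IL-6 plus HGF (diamonds), with a dotted line where HGF was added. Serpina3n runs from 12.98 at 0 h to 10.95 in control and 10.69 with IL-6 plus HGF at 24 h, while Serping1 stays between 12.15 and 12.81.

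The promoters of Serpina3n, Serpinc1, Serpinf2 and Serpind1 are shown for reference. RefSeq windows were given for 4 of the 7 measured genes. Each is the 250 bases before the start that the RefSeq table uses in GRCm38.p6, 5′ to 3′ on the strand of the gene, with matches to the motifs searched in capitals. Serpina3n lies at chr12:104406458-104406707 (plus strand), Serpinc1 at chr1:160978333-160978582 (plus strand), Serpinf2 at chr11:75439502-75439751 (minus strand) and Serpind1 at chr16:17331121-17331370 (plus strand). The Serpina3n window is counted from a start inside the annotated gene, so that its last 62 bases lie within the gene, and the other 3 windows end at the gene's edge.
Serpina3n: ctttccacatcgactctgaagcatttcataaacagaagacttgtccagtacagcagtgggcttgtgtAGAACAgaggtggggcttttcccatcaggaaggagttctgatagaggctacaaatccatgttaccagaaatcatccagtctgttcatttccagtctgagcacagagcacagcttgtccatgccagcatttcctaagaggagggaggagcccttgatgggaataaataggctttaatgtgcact
Serpinc1: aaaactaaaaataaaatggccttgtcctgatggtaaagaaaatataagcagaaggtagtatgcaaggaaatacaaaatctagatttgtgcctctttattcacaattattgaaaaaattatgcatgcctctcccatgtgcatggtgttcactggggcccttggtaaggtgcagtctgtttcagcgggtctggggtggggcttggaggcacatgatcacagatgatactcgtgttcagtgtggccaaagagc
Serpinf2: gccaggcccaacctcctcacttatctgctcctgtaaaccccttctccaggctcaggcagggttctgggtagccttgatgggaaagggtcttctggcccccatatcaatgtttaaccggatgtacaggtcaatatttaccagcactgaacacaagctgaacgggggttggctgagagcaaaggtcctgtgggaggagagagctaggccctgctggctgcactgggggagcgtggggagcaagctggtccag
Serpind1: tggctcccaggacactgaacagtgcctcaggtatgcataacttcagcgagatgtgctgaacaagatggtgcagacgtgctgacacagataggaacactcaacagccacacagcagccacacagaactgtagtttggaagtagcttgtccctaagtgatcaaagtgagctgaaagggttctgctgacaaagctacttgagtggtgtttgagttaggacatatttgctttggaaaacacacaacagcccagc

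Both strands were searched for 5 motifs. The STAT motif TTCNNNGAA had 0 matches in these 4 windows and is present in 7.02% of the 32851 windows of this length, the C/EBP motif TTGCNNAA had 0 (9.56% of windows), the IL-6 response core CTGGGAA had 0 (9.1%) and the half-site GTTAAT of the hepatocyte factor HNF1 had 0 (6.43%). The glucocorticoid receptor half-site TGTTCT, found in 16.1% of windows, matched once on the opposite strand, as AGAACA from base 183 to base 178 before the start used for the Serpina3n window, which is 121 to 116 bases before the gene's annotated edge. A match is only a run of letters, and a window without one says nothing of binding elsewhere.

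The time course under IL-6 plus HGF was tested as a slope on log2 of the hour over 8 arrays. Serpina3n fell by 0.85 ± 0.10 (log2 per doubling of the hour, SE; adjusted p = 0.00082), Serpina6 by 0.78 ± 0.09 (adjusted p = 0.000575), Serpina10 by 0.80 ± 0.18 (adjusted p = 0.0156), Serpinc1 by 0.75 ± 0.09 (adjusted p = 0.00089) and Serpinf2 by 0.56 ± 0.10 (adjusted p = 0.00595). Serpind1 (0.19 ± 0.09, adjusted p = 0.227) and Serping1 (-0.12 ± 0.08, adjusted p = 0.411) did not pass. So 5 of 7 serpins fell and 0 rose in limma, where 4.84% of 18193 genes fell. The median slope of the 7 was -0.75, and that of all genes -0.01.

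These calls turned on the array at 24 h. Without it 0 of 7 serpins passed, and the genes called in either direction went from 2020 to 244. Serpina6 then kept a slope of -0.74 (adjusted p = 0.0626), but its SE was 0.16, against 0.09 with 24 h. Serpina3n had -0.48 (adjusted p = 0.0846), Serpinc1 -0.40 (0.0789), Serpina10 -0.24 (0.704) and Serpinf2 -0.23 (0.454). The steepness of Serpina6 was thus present by 12 h, whereas those of Serpina10 and Serpinf2 came mainly from the last array. Of 7 hepatocyte markers 3 fell over the same arrays, where 4.84% of all genes fell. Negative slopes were found for 7 of 7, with a median of -0.15 against -0.75 for the serpins. Of these markers Alb, Serpina1c, Apoa1 and Ttr had means of 14.83, 14.64, 14.27 and 14.26, near the highest value of 15.049. Cps1 ranged from 6.28 to 11.59. Whether such high levels limit a slope was not tested, so the 2 medians are not measured on like terms. The part of these markers in the serpin slopes was not tested.

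**Figure D2:**
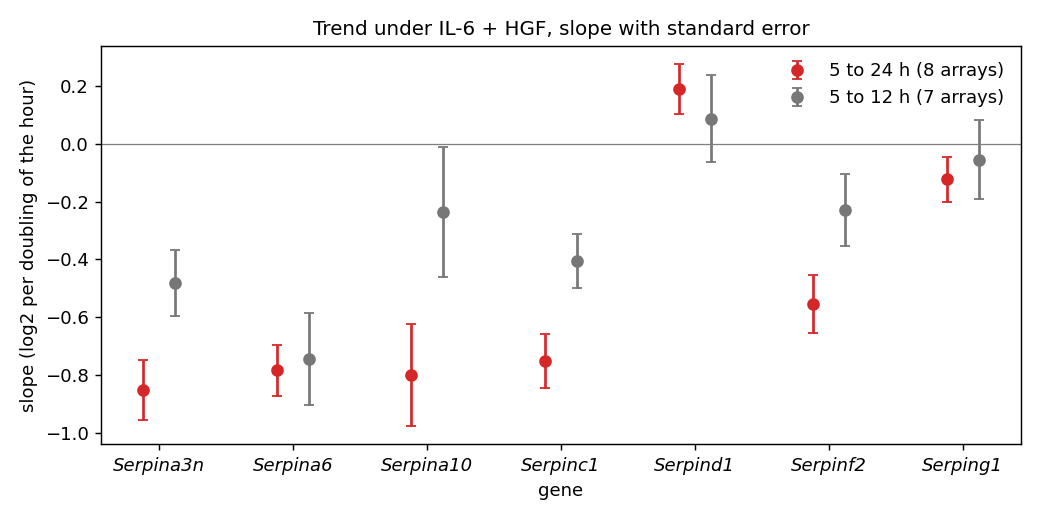
Slope of each serpin under IL-6 plus HGF (vertical axis, log2 per doubling of the hour) with its standard error, over 5 to 24 h (8 arrays, left point of each pair) and over 5 to 12 h (7 arrays, right point). Serpina6 keeps its slope without 24 h (-0.78 and -0.74), while Serpina10 goes from -0.80 to -0.24.

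Lower levels with time were also seen without stimulation. In control alone, over 5 arrays and on log2 of the hour plus 1, Serpina6 fell by 0.40 ± 0.07 (SE; adjusted p = 0.0428) and was the 1 serpin of 7 that passed, where 1.47% of all genes fell in limma. It missed the threshold without the control at 0 h (adjusted p = 0.197), 4 h (0.0942), 8 h (0.0757) or 24 h (0.0513), and it was not tested where genes under the 40th percentile were left out. Serpina3n had a slope of -0.37 ± 0.10 (adjusted p = 0.0812), Serpinc1 of -0.25 ± 0.08 (0.142) and Serpinf2 of -0.15 ± 0.07 (0.245). On the hour itself rather than its logarithm these 3 passed, and Serpina6 did not (adjusted p = 0.0543). The slopes per hour were -0.084 for Serpina3n (adjusted p = 0.000332), -0.060 for Serpinc1 (0.00289) and -0.038 for Serpinf2 (0.0268). Calls rose over all genes too: on the hour itself limma called 1685 of 18193 in either direction, against 657 on the logarithm. Serpina3n also passed on the logarithmic scale without 24 h, at -0.20 (adjusted p = 0.043).

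Whether the slopes differed between conditions was tested directly over 12 arrays, IL-6 plus HGF from 5 h and control from 4 h. Of the 7 serpins 0 passed, where limma called 0.0989% of genes, and 0 of the 7 had an unadjusted p under 0.05. The difference was steeper under IL-6 plus HGF by point estimate for 6 of 7 genes, at -0.47 ± 0.27 (SE) for Serpina10 (adjusted p = 0.901), -0.32 ± 0.17 for Serpina6 (0.877), -0.26 ± 0.15 for Serpinc1 (0.904) and -0.20 ± 0.17 for Serpina3n (0.987). Serpind1 had 0.11 ± 0.14. The interval for Serpina3n ran from -0.57 to 0.18 per doubling of the hour, which includes 0.

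The step from 12 to 24 h, chosen for description after the values had been seen, was close in both conditions for 4 genes. Serpina3n differed by -1.23 in control and -1.23 with IL-6 plus HGF, a 2.35-fold lower level each time. Serpina10 differed by -1.25 and -1.28, Serpinc1 by -1.03 and -1.23, and Serpinf2 by -0.83 and -0.90. These 4 were each lower at 24 h by nearly the same amount with and without the factors.

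The other 3 serpins did not share that step. Serpina6 differed by 0.23 in control, where it was already low at 12 h, and by -0.92 with IL-6 plus HGF. Serping1 differed by -0.42 and -0.03, and Serpind1 by -0.33 and 0.27. A level lower by at least 1 log2 unit in both conditions was seen in 3 of 7 serpins and in 0.385% of all genes, and the median over all genes was -0.05 in control and -0.05 with IL-6 plus HGF. With 1 array at each hour this step has no test.

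**Figure D3:**
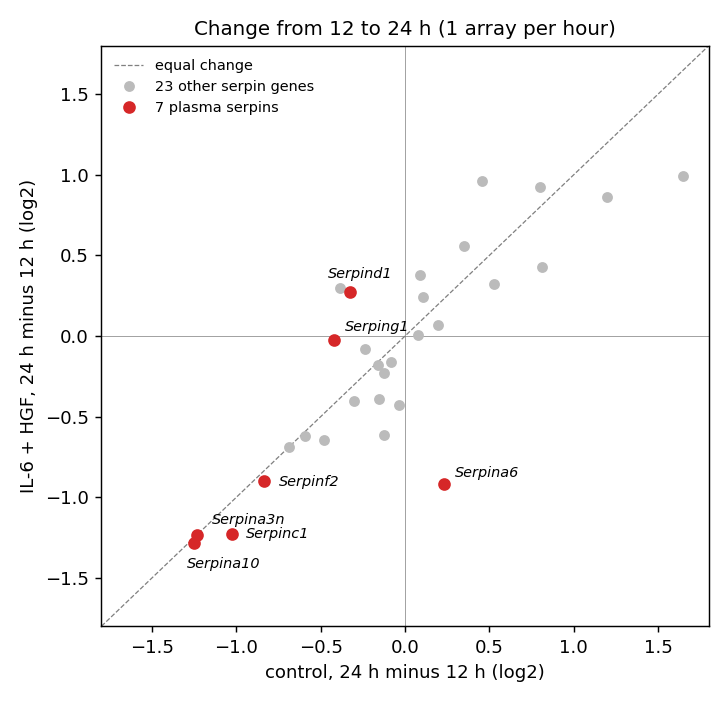
Log2 change from 12 to 24 h in control (horizontal axis) and with IL-6 plus HGF (vertical axis), 1 array per hour, for the 7 plasma serpins (labelled) and 23 other serpin genes (grey), with a dashed line of equal change. Serpina3n, Serpina10, Serpinc1 and Serpinf2 lie near that line at the lower left, from -0.83 to -1.28, and Serpina6 lies off it at 0.23 and -0.92.

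The hours sampled in both conditions, 8, 12 and 24 h, gave 3 pairs of IL-6 plus HGF and control, fitted with the hour as a block. Of the serpins 0 of 7 passed, where limma called 9.00% of 18193 genes. An unadjusted p under 0.05 was found for 2 of 7 and for 24.9% of all genes. The inhibitor with the smallest p was Serpinc1, at -0.34 ± 0.10 (log2, SE, 3 pairs; 95% interval -0.57 to -0.11; unadjusted p = 0.0102, adjusted p = 0.0817). The 3 pairs gave -0.14 at 8 h, -0.34 at 12 h and -0.54 at 24 h. All were negative, and with an intensity trend and robust variance the gene passed (adjusted p = 0.0222). That setting called 2137 genes, against 1637 in the main fit. In limma Serpinc1 did not pass without the pair at 8 h (adjusted p = 0.0869), 12 h (0.222) or 24 h (0.265). It did not pass without the time block (0.815) either, and over the 4 cells of 17 arrays it differed by 0.04 ± 0.29 (0.945).

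Serpina3n differed by -0.19 ± 0.08 (adjusted p = 0.192), with -0.06, -0.26 and -0.26 at 8, 12 and 24 h. Hence the acute-phase serpin was at no matched hour above its control. Among 30 IL-6 response genes at the same hours 7 were higher and 1 lower, where 2.53% of all genes were higher and 6.46% lower. Of the 30, 16 differences were positive and 14 negative, with a median of 0.02. Within the list Fga (0.81) and Fgb (0.58) were higher, while Hp (-0.13), Orm1 (-0.09) and Saa1 (-0.07) did not pass. Serpina3n was thus not alone among such genes in lying below its control. Socs3 was higher by 2.53 ± 0.12 (adjusted p = 0.00102 in limma) and Cebpd by 2.03 ± 0.10 (adjusted p = 0.00102). Over the 4 cells of 17 arrays, in which the hours are not matched, the sign turned for 5 of the 7 serpins, with Serpina3n at 0.29 ± 0.34 (adjusted p = 0.642) and 0 of 7 passing. Of 7 hepatocyte markers 2 were lower at the matched hours, where 6.46% of all genes were lower. Of these 7 markers 0 had a positive difference, with a median of -0.155. Their part in the serpin values was not tested.

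Serpina10 differed by 0.18 at 8 h, -0.63 at 12 h and -0.67 at 24 h, with a mean of -0.37 ± 0.17 (adjusted p = 0.233). It passed in limma without the pair at 8 h, its only positive one (-0.65, adjusted p = 0.0239), where 843 of 18193 genes were called. Without the pair at 12 h (-0.24, adjusted p = 0.566) or 24 h (-0.23, adjusted p = 0.556) it did not. Serpina6 went both ways, at 0.07, 0.59 and -0.56. The remaining genes had intervals that included 0, from -0.15 to 0.42 for Serpind1, from -0.24 to 0.18 for Serpinf2 and from -0.24 to 0.22 for Serping1.

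**Figure D4:**
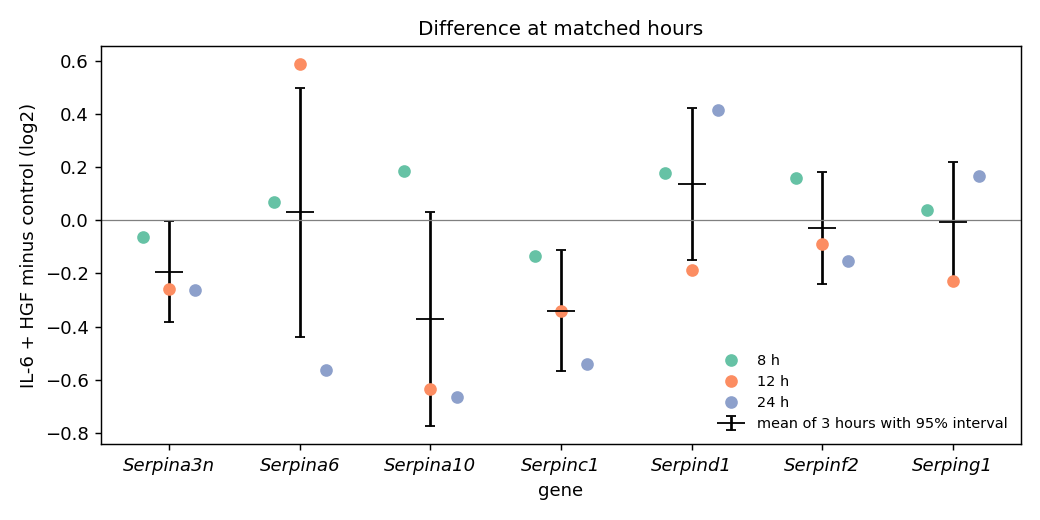
IL-6 plus HGF minus control (vertical axis, log2) for each serpin at 8, 12 and 24 h (points) with the mean of the 3 hours and its 95% interval (bars). Serpinc1 is below 0 at all 3 hours (-0.14, -0.34 and -0.54), while Serpina6 lies at 0.07, 0.59 and -0.56.

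The change of effect, that is the difference from control after HGF minus that under IL-6 alone, was tested in the fit of 17 arrays. In that fit the hours after HGF are not matched to those of the controls, so change over time in culture enters the estimate. The difference from control after HGF had opposite signs there and at the matched hours for 5 of the 7 serpins. For Serpina3n that difference was 0.29 there and -0.19 at the matched hours. The change of effect passed for 0 of 7 serpins, with 0.0220% of genes called by limma and 0 of the 7 at an unadjusted p under 0.05. Its estimates lay between -0.14 for Serpina10 and 0.51 for Serpina6, the latter with an SE of 0.50. The control at -5 h, by its hour taken before the 4 h in medium without dexamethasone, was set against the 5 later controls. Here 0 of 18193 genes passed in limma (0%), 1019 had an unadjusted p under 0.05, and none of the 7 serpins did (0 of 7).

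The single array at -5 h lay within 0.08 of that at 0 h for 6 of the 7 serpins, Serpind1 being the exception. The control at 0 h minus that at -5 h was 0.08 for Serpina3n, -0.04 for Serpina6, -0.08 for Serpina10, -0.08 for Serpinc1, -0.06 for Serpinf2, -0.01 for Serping1 and -0.24 for Serpind1. Of 15 measured glucocorticoid response genes 13 were higher at -5 h than in the later controls, with a median difference of 0.70. Among the 15, Fkbp5, which read 10.59 at -5 h and 9.85 at 0 h, and Tsc22d3, which read 8.51 and 7.56, were lower at 0 h. Positive differences were also found for 13 of 18 interferon response genes (median 0.42) and 25 of 30 IL-6 response genes (0.18). They were found for 4 of 10 Kupffer cell markers and for 9413 of all 18193 genes (median 0.01). For the 6 other than Serpind1, the lower levels of the control course thus came after 0 h.

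Other serpins were read from a list of 37 genes, of which 23 had a probe set of their own. Under IL-6 alone 0 of 23 passed. At the matched hours 1 was higher and 4 were lower, with a median of -0.01, where 2.53% of all genes were higher and 6.46% lower. Serpinb2, an inhibitor of urokinase whose signal of 3.52 to 5.27 was below every array median, was higher by 0.89 ± 0.10 (SE; adjusted p = 0.00567), and Serpina12 (-0.76, adjusted p = 0.0421), Serpinb6b (-0.68, 0.0158) and Serpinb9, an inhibitor of granzyme B (-0.44, 0.0471), were lower. Along the course of IL-6 plus HGF 3 of 23 fell and 2 rose, where 4.84% of all genes fell and 6.27% rose. Agt, which encodes the non-inhibitory serpin angiotensinogen, fell by 0.61 ± 0.05 per doubling of the hour (adjusted p = 0.000189), Serpina11 had -0.49 (0.00135) and Serpinf1 -0.44 (0.00148). Serpina5, the protein C inhibitor, rose by 0.46 (adjusted p = 0.0143). Its signal was low, at 4.43 to 5.97, and in control it stood 1.535 log2 units above its 0 h value at 24 h. Its slopes differed between conditions by -0.02 ± 0.20 (SE), which did not pass.

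In control 2 of these 23 rose and 3 fell, where 2.14% of all genes rose and 1.47% fell. Serpina7, which encodes thyroxine-binding globulin, rose by 0.46 ± 0.03 per doubling of the hour plus 1 (SE; adjusted p = 0.00647) and stood 2.20 log2 units above the 0 h control at 24 h. It and Serpina6 are both hormone carriers of plasma, and they moved in opposite directions. Serpinb6a rose by 0.27 (adjusted p = 0.0264), Serpinb2 had -0.31 (0.0328) and Agt -0.21 (0.0464).

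The proteases that these serpins inhibit, and their cofactors, made a list of 26 genes, of which 24 were measured. Under IL-6 alone 0 passed. At the matched hours 8 were lower and 0 higher, where 6.46% of all genes were lower and 2.53% higher, with a median of -0.23 against 0.01 over all genes. They included Masp1, a protease of the lectin complement pathway (-1.42 ± 0.15, SE; adjusted p = 0.00508), Klkb1, plasma kallikrein (-1.05 ± 0.13; 0.00773), coagulation factor F10 (-0.85 ± 0.14; 0.017) and Proz, protein Z, the cofactor of Serpina10 (-0.82 ± 0.10; 0.00761). The difference between proteases and inhibitors was not tested.

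Along the course of IL-6 plus HGF 11 of these 24 fell and 1 rose, against 4.84% and 6.27% of all genes. Masp1 fell by 1.55 per doubling of the hour (adjusted p = 0.000448), F10 by 1.07 (0.000433), Plg, which encodes plasminogen, by 0.95 (0.000156) and Proz by 0.69 (0.0106). In control, over 5 arrays, 0 of the 24 passed, where 2.14% of all genes rose and 1.47% fell. An unadjusted p under 0.05 was found there for 6 of 24 and for 22.4% of all genes. The direct test of the difference of slopes passed for 0 of 24, where limma called 0.0989% of genes. In that test 6 of 24 had an unadjusted p under 0.05, as did 6.29% of all genes. How many protease calls remain without 24 h was not counted. Over all genes the calls along IL-6 plus HGF went from 2020 to 244.

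Among the serpins themselves, Serpina3n and Serpinc1 had the most alike profiles, with a Pearson r of 0.976 over 18 arrays and 0.91 over the 16 arrays without 24 h. Serpina6 was next to both without 24 h, at 0.851 and 0.844 with Serpina3n and 0.841 and 0.805 with Serpinc1. Serpina10 and Serpinf2 had 0.944 and 0.738. Between Serpina3n and Serpina10 the likeness rested on 24 h: they had 0.808 with those arrays and 0.082 without. Serpind1 ran against Serpina3n, at -0.67 and -0.753. These correlations share hours, cells and arrays and are given as descriptions.

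Over all genes, those most like Serpina3n were Cyp2e1 (r = 0.992), Cyp4a12a (0.992) and Slc27a5 (0.991). The first is a cytochrome P450 of ethanol metabolism, the second a fatty acid hydroxylase of the same superfamily, and Slc27a5 is a bile acid ligase. Serpinc1 was most like Apoh (0.998), the gene of beta-2-glycoprotein I, and then Asgr1 (0.993), a subunit of the asialoglycoprotein receptor, and Cyp2d9 (0.992). Without the 24 h arrays these 6 values lay between 0.968 for Cyp2e1 and 0.988 for Apoh. Serpina6 was most like Mtdh (0.951), Serpina10 like Slc6a9 (0.941), Serpinf2 like Wfdc21 (0.942), Serping1 like Relb (0.922) and Serpind1 like Sft2d1 (0.89). Without 24 h Serpinf2 and Wfdc21 had 0.474 and Serpina10 and Slc6a9 0.696, so that these likenesses rested largely on the 24 h arrays. The values of Serpina6 with Mtdh (0.946), Serping1 with Relb (0.857) and Serpind1 with Sft2d1 (0.89) were less affected.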

How the data were processed

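Total RNA of 18 dishes of primary mouse hepatocytes was labelled by the one-cycle biotin method and hybridised to Affymetrix arrays with a single label (45101 probe sets), per the labels' protocols. The deposited values are log2 expression signals, and for their summarization and normalization the sources used here give no tool or setting. Values ran from 2.095 to 15.049 and each array's sorted values stayed within 0.118 of the mean of all arrays, so no further scaling was applied. The number of arrays limits the precision. No column was left over (0).

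Probe sets were named from the array annotation, with symbols updated by Entrez identifier: 34958 had 1 symbol, 932 several and 9211 none. The probe set with the highest mean stood for each of 18193 genes, with no filter on dim genes. Linear models came from limma 3.58.1 (lmFit, eBayes; R 4.3.3). The p-values were adjusted by Benjamini-Hochberg across the 18193 genes and called under 0.05, after the fits had been tested on simulated data. The fits used 17 arrays in 4 cells (IL-6, change of effect), 6 arrays with the hour as a block (matched hours, 2 residual degrees of freedom), and 8, 12, 5 and 6 arrays (trends and -5 h). Alternatives were quantile normalization, median centring, a filter at the 40th percentile, the mean of all probe sets, eBayes with robust variance and an intensity trend, all probe sets together, other control choices and time scales, and leaving out each array or pair.

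The serpins and gene lists were chosen with earlier results of these data known. Named were all measured serpins, up to 4 passing genes of each list by size of difference, fixed marker genes, and the genes most alike over 18 arrays, clone names left out. The 12 to 24 h step was chosen after the values were seen.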

Additional observations from a re-analysis of the deposited data

Results flagged for a closer look

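In 6 of 21 sets (7 serpins in control, IL-6 and IL-6 plus HGF) 1 array lay far from the others of its condition. Its gap to its neighbour was above Dixon's critical value. That value is made for replicates, whereas these sets are hours of a time course with a wide space between 12 and 24 h. With IL-6 plus HGF a steady fall over the hours sampled can pass it, so the flags are descriptions only. All 6 were the lowest value and all were at 24 h. With IL-6 plus HGF they were Serpina3n at 10.69, Serpina10 at 10.47, Serpinc1 at 11.45 and Serpinf2 at 11.15, and in control Serpinc1 at 11.99 and Serpinf2 at 11.30. The gap filled between 0.613 of the range (Serpina10) and 0.861 (Serpinf2 in control). In both conditions 12 and 24 h are neighbouring samples, and no dish was taken between them. The mean of the hepatocyte markers was also lowest at 24 h in both conditions, and its part in these values was not tested.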

How the results depend on the processing

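Across 7 comparisons and all alternatives, 111 counts of serpins past the threshold stayed within 1.5 times the main count, 3 were higher and 6 lower. The trend under IL-6 plus HGF went from 5 serpins to 0 without 24 h, and from 0 to 5 when each array was left out in turn. The trend in control went from 1 to 3 on the hour itself, to 0 with dim genes left out, since Serpina6 was then not tested, and from 0 to 1 when each array was left out. The matched hours went from 0 to 1 with an intensity trend and robust variance (Serpinc1), and from 0 to 1 when each pair was left out (Serpina10 without 8 h). The other 4 comparisons gave 0 throughout. Among values of single serpins 0 reversed a call, 16 lost one, 7 gained one and 756 kept their side. A further 54 that passed under neither setting changed sign. These counts hold some fits more than once. For the trends in control and under IL-6 plus HGF, leaving out 24 h counts both as a time choice and as an array left out. As each serpin had 1 probe set, the mean of all probe sets could not change its difference. Over all genes the count of calls depended more on the setting: it was 1637 at the matched hours (142 without the block, 2137 at most), 2020 along IL-6 plus HGF (244 without 24 h, 3095 at most), 657 in control (23 to 1685), 18 for the difference of slopes (0 to 46), and 4 for IL-6 (3 to 22) and for the change of effect (0 to 26). The labels carry no replicate numbers. No paired analysis by replicate number was possible because each condition and hour had 1 array; the matched hours used the hour as a block, and without that block 0 serpins passed. A call at 1 hour cannot be separated from the dish it came from.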
